A study of Danio rerio with 2 samples.

Results

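Semaphorins are secreted or membrane-bound guidance cues, plexins are their main receptors, and neuropilins are co-receptors that bind class 3 semaphorins and also VEGF. A semaphorin that engages a plexin changes the activity of small GTPases in the responding cell, which remodels its cytoskeleton and adhesion, usually so that the growing tip turns away. In the zebrafish trunk the system is known for patterning both axons and intersegmental vessels, where plexin D1 on endothelial cells reads semaphorins made by the somites.

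Genes of this system were taken from RNA sequencing of Tg(fli1a:EGFP)y1 embryos at 22 to 24 hours post-fertilisation (hpf). The GFP+ library came from the sorted green cells, labelled endothelial, and the GFP- library from the remaining cells of the dissociated embryos, labelled non-endothelial. All cells carry the same transgene, and EGFP is driven by regulatory sequence of fli1a, which is active in endothelial, blood-forming and pharyngeal arch cells, so that green cells are not endothelial alone. There was 1 library per group, and whether embryos were pooled is not given in the sources used here. A gene was included when the best protein match listed for any of its transcripts held the word semaphorin, plexin or neuropilin, with complexin set aside. This rule found 60 of 22017 genes. These were 18 plexin, 6 neuropilin and 31 semaphorin genes, 13 of them of class 3, together with 5 genes of other protein families whose names contain the same words (3 neuropilin and tolloid-like genes and 2 plexin domain-containing genes). No protein or promoter sequence was used here, so that the genes are described by name, position and reads.

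The libraries held 4441335 reads in GFP+ cells and 4105672 reads in GFP- cells, and 7342 GFP+ reads and 7514 GFP- reads fell on the 60 genes. Log2 ratios of GFP+ over GFP- cells were computed on reads scaled to these totals with 0.5 reads added, for the 50 genes that reached 10 reads in both libraries together, and each is given with a 95% exact interval that covers counting error only. With a single library per group no difference has a replicate check, and fewer cells of a type cannot be told apart from less RNA per cell. The labels were checked against marker genes. All 8 endothelial genes with enough reads were over 2-fold higher in GFP+ cells (log2 ratio 2.25 to 6.87), with summed levels of 2140 and 119 RPM in the GFP+ and the GFP- library (RPM, counted reads scaled to a common library total), although the endothelial cadherin gene cdh5 had only 5 GFP+ reads and 0 GFP- reads and fli1a itself was not matched. All 7 erythroid genes and 4 of 5 myeloid genes were higher as well, with summed levels of 29685 RPM in GFP+ cells against 262 RPM in GFP- cells for erythroid genes, and of 201 against 8.52 RPM in GFP+ over GFP- cells for myeloid genes. Of neural genes 7 of 9, of muscle genes 4 of 4 and of epidermal genes 4 of 4 were over 2-fold lower in GFP+ cells, and their summed levels in GFP+ cells still reached 944, 564 and 462 RPM, against 1792, 2068 and 1846 in GFP- cells. The neural genes elavl3, neurog1 and gfap lay just past the line, at log2 ratios of -1.01, -1.03 and -1.04. Other scalings of the libraries raised every ratio by 0.09 to 0.11, which puts these genes within 2-fold. Of neural crest and arch genes 3 of 4 were lower, at 97.7 RPM in GFP+ cells, against 172 RPM in GFP- cells. The part of blood and other cells in the values below was not tested.

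Calls among these genes were about as frequent as among all genes, while single members lay far apart. Of the 50 genes, 10 were over 2-fold higher in GFP+ cells and 7 were over 2-fold lower, that is 20% and 14%, while 16.2% and 17.6% of all 15252 genes were called in these directions. The intervals of all 17 did not cross 1-fold. Under that stricter rule 14.1% of all genes were higher and 15.1% lower, so that the share of these genes was near the background in both directions. Their median log2 ratio was -0.09, beside -0.11 over all genes, and scaling by trimmed means (TMM) or by median-of-ratios size factors turned it above 0 (0.01 and 0.02). The 10 higher genes include 2 models of plexin D1 and a short model of neuropilin 2a. With models of the same protein summed, 8 were higher and 7 lower. Besides plexin C1, whose ratio has no upper bound, the largest ratios belonged to a semaphorin 7A match, both plexin D1 models, a short neuropilin 2a model, sema3ab and nrp1b, and the smallest to sema3aa, a semaphorin 4D match, sema3d, plxna3 and plxnb1a.

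**Figure D1:**
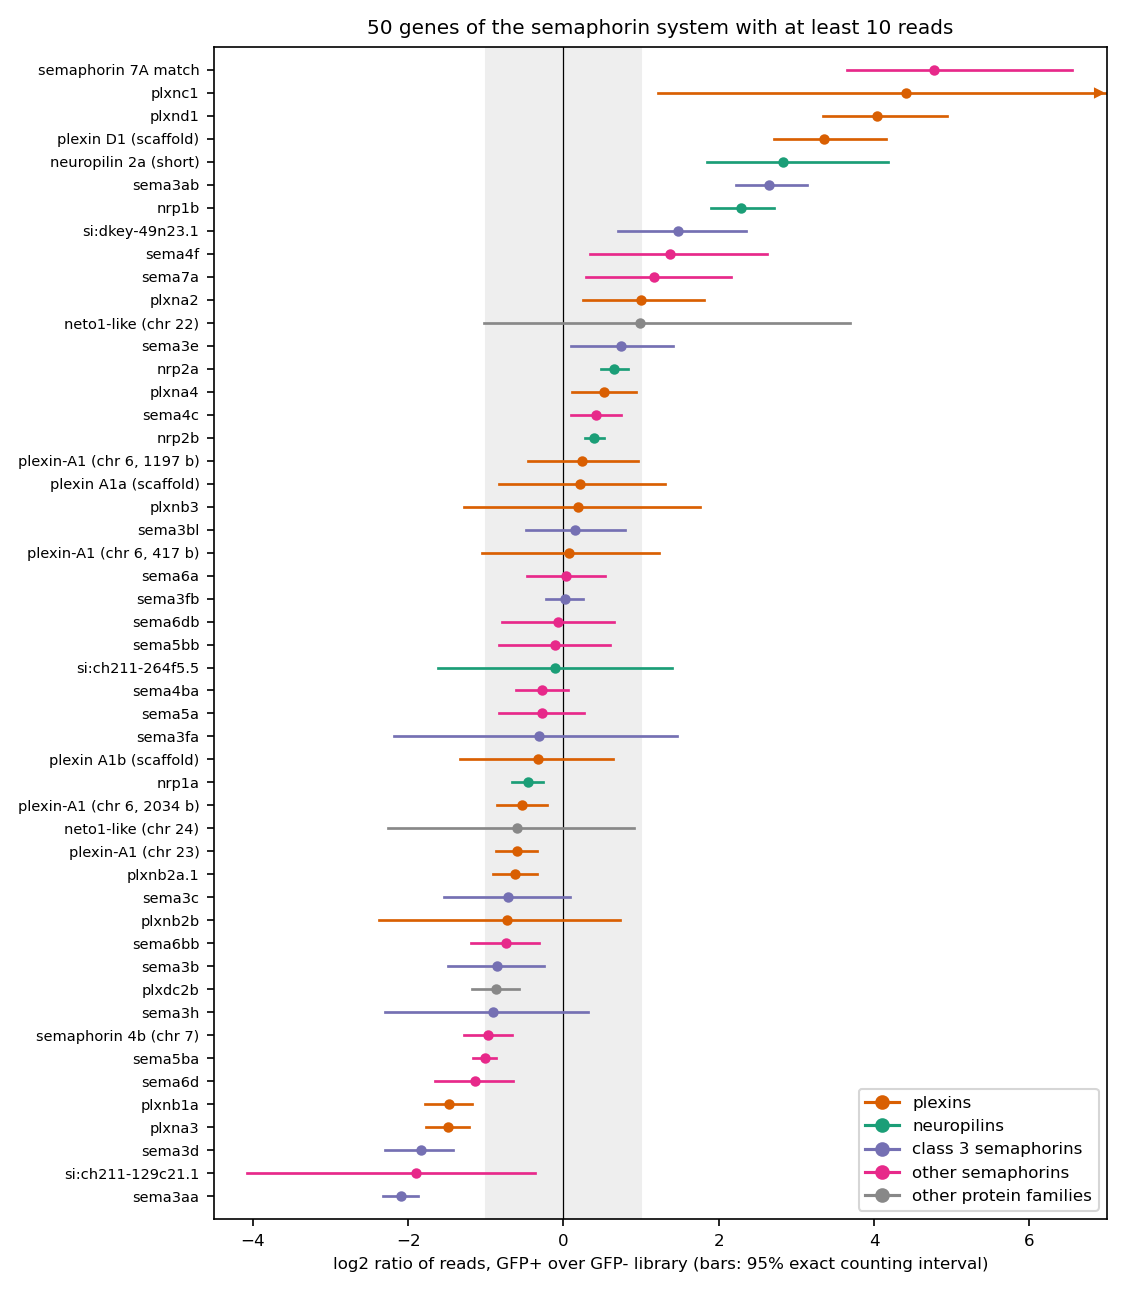
Log2 ratio of reads in the GFP+ over the GFP- library for the 50 genes with at least 10 reads, with 95% exact counting intervals as bars, coloured by family; the grey band marks ratios within 2-fold. Of these genes 10 lie above the band and 7 below it; plexin C1, with 0 reads in GFP- cells, has no upper bound (arrow) and its point depends on the 0.5 reads added.

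Plexin D1, the plexin that is best known from endothelial cells, was the receptor with the clearest difference. Its gene plxnd1, annotated on the forward strand of chromosome 8 (56156058 to 56170545 in Zv9, the build of all positions here), had 276 GFP+ reads and 15 GFP- reads. Reads covered 80.0% of its 1647-base transcript in GFP+ cells and 35.1% in GFP- cells. Its log2 ratio was 4.04 (95% interval 3.34 to 4.95), or 16.5-fold. A second model described as plexin D1, ENSDARG00000089935, is a 306-base transcript on an unplaced scaffold and had 216 GFP+ and 19 GFP- reads, a log2 ratio of 3.36 (2.72 to 4.15). The 2 models therefore gave the same direction from separate reads, since only uniquely mapped reads were counted. Whether they are pieces of 1 gene was not tested; together they had 492 GFP+ reads and 34 GFP- reads (log2 ratio 3.72, 3.24 to 4.29). Among reads of the plexin genes included here, plxnd1 took 17.2% in GFP+ cells (exact 95% interval 15.4% to 19.2%) and 0.882% in GFP- cells (0.495% to 1.45%). Plexin genes found by symbol alone are not in these totals and would lower both shares.

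Plexin C1, which in mammals is the receptor of semaphorin 7A, was the third plexin model over 2-fold higher in GFP+ cells, at a far lower level. It had 11 GFP+ reads and 0 GFP- reads. Set against a floor of 3 reads, with the 11 reads taken as exact, this is 3.39-fold higher. The lower end of its 95% interval is a log2 ratio of 1.21, or 2.32-fold, and there is no upper end. Its transcripts contributed 5 GFP+ reads and 6 GFP+ reads.

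Over the plexin family 18.8% of 16 models were over 2-fold higher and 12.5% lower, beside 16.2% and 17.6% of all genes. None of the 9 plexin A and 4 plexin B models with enough reads was over 2-fold higher in GFP+ cells. With so few models, 6 of them of plexin A1, this count is a description only. Of 9 plexin A models 5 had log2 ratios above 0, none past 2-fold, and 1, plxna3, was over 2-fold lower. This receptor of class 3 semaphorins, which guides motor axons in zebrafish, had 157 GFP+ reads and 408 GFP- reads, a log2 ratio of -1.49 (-1.77 to -1.22). The gene plxna4, another axonal receptor, had 129 GFP+ and 83 GFP- reads (log2 ratio 0.52, 0.11 to 0.94). With 48 GFP+ reads and 22 GFP- reads, plxna2 stood just inside the 2-fold line at a log2 ratio of 0.99 (0.26 to 1.81), and it passed that line under each of the other scalings of the libraries (up to 1.11). Plexin A1 was spread over 6 models on chromosomes 6 and 23 and 2 scaffolds. The longest, of 9533 bases on chromosome 23, had 204 GFP+ and 286 GFP- reads (log2 ratio -0.60, -0.87 to -0.34), and the 6 models ranged from -0.60 to 0.24. Summed, they had 438 GFP+ reads and 555 GFP- reads, a log2 ratio of -0.45 (-0.64 to -0.27). Copies plxna1a and plxna1b were not compared, because 4 of the models carry the same protein name.

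Among B plexins, plxnb1a was lower in GFP+ cells, with 130 GFP+ reads against 334 GFP- reads (log2 ratio -1.47, -1.78 to -1.18). Plexin B1 is the receptor of semaphorin 4D. Another gene listed as PLXNB1, found by symbol alone and not among the 60, was within 2-fold. It had 486 GFP+ and 534 GFP- reads (log2 ratio -0.25, -0.43 to -0.07). The 3945-base transcript of plxnb1a gave -1.66 (-2.0 to -1.34), whereas a 914-base transcript with 15 GFP+ and 13 GFP- reads gave 0.09 (-1.08 to 1.28). The gene plxnb2a.1, of the plexin B2 type that binds class 4 semaphorins, had 172 GFP+ and 245 GFP- reads (log2 ratio -0.62, -0.91 to -0.34), and its transcripts differed. The 5595-base transcript had 70 GFP+ reads and 54 GFP- reads (log2 ratio 0.26, -0.27 to 0.80), and the 4473-base transcript had 102 GFP+ and 191 GFP- reads (-1.02, -1.38 to -0.66). These intervals do not overlap, but the gene overlaps a neighbouring model of the plexin family, si:dkey-183c2.5, by 4.99 kb on the same strand, so that the split of reads is uncertain. Both plxnb2b (7 GFP+ and 11 GFP- reads) and plxnb3 (10 GFP+ and 8 GFP- reads) were too sparse to place, with intervals from -2.37 to 0.73 and from -1.28 to 1.75.

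**Figure D2:**
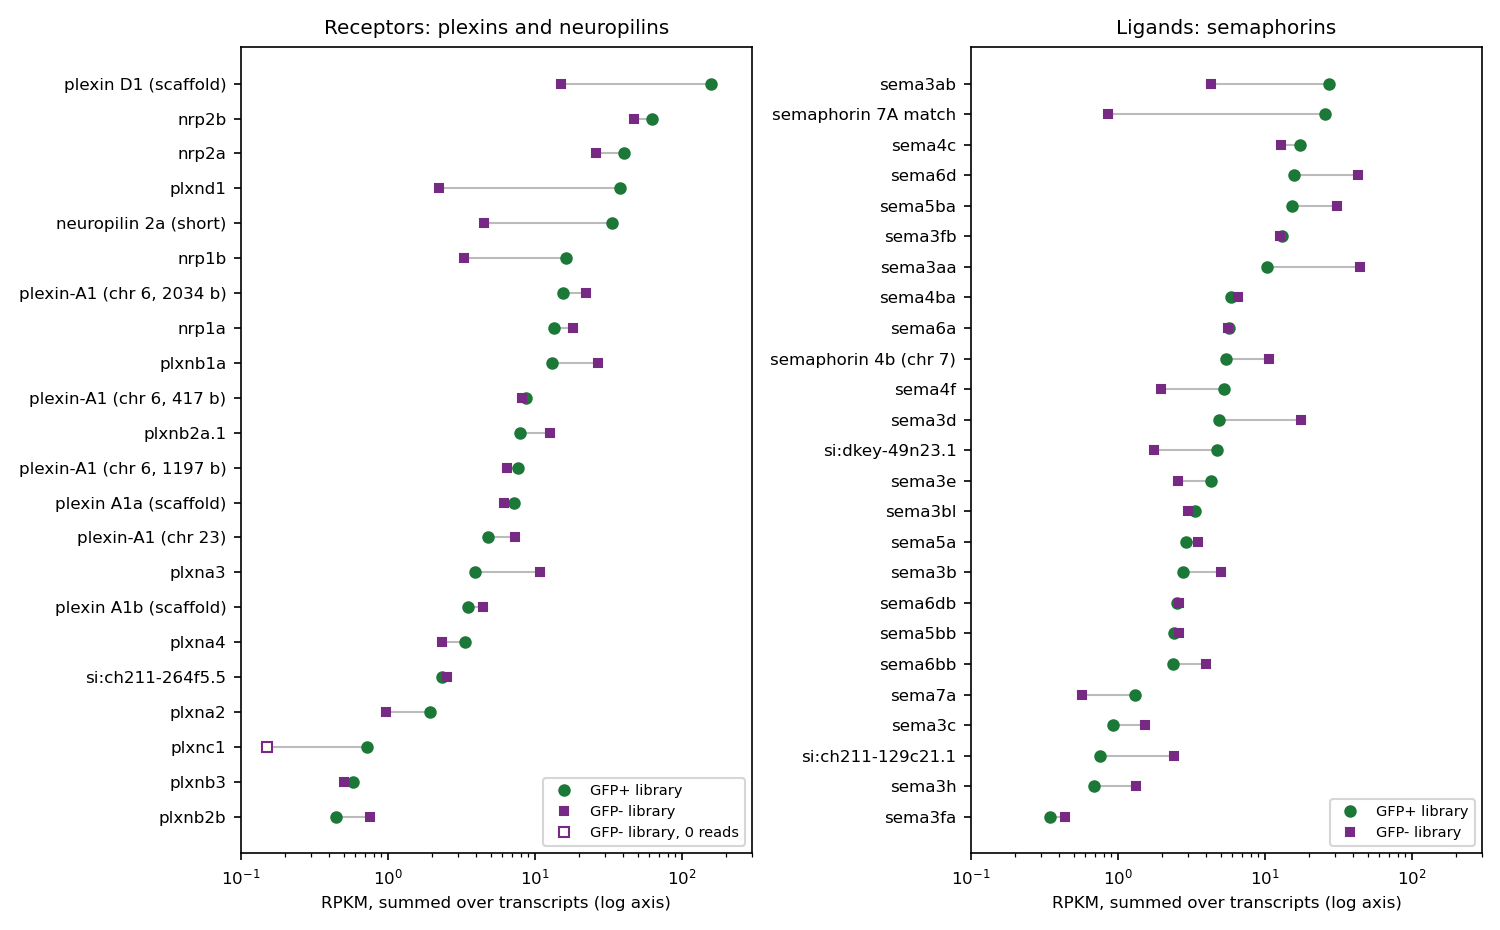
Level in RPKM (reads scaled to transcript length and library total) in the GFP+ library (green circles) and the GFP- library (purple squares) on a log axis, summed over the transcripts of each gene, for plexins and neuropilins (left) and semaphorins (right) with at least 10 reads; lines join the values of a gene. The plexin D1 models reach 37.7 and 159 RPKM in GFP+ cells, against 2.22 and 15.1 in GFP- cells, while sema3aa, sema3d and sema6d lie further right in GFP- cells; the open square marks 0 reads.

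Among the genes included here, neuropilins had more reads than plexins in both populations. They had 2807 GFP+ reads and 1892 GFP- reads, against 1600 and 1700 for plexins. The plexin totals leave out PLXNB1 (486 GFP+ and 534 GFP- reads) and plxnb2a.2 (10 and 38), found by symbol alone. With them counted, plexins had more reads than neuropilins in GFP- cells. The gene nrp2b, a co-receptor of class 3 semaphorins and, in mammals, of VEGF-C, was the highest neuropilin gene per length at 62.2 RPKM in GFP+ cells and 47.2 RPKM in GFP- cells. It had 1322 GFP+ and 927 GFP- reads, a log2 ratio of 0.40 (0.28 to 0.52). The other copy, nrp2a, had 715 GFP+ and 420 GFP- reads and a log2 ratio of 0.65 (0.48 to 0.83). Both Nrp2 genes were thus higher in GFP+ cells by less than 2-fold, beyond counting error.

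The Nrp1 copies went apart. Nrp1 is a co-receptor of VEGF-A with VEGFR2 and of Sema3a with A plexins. The gene nrp1b, on chromosome 2 from 43570359 to 43633838, had 330 GFP+ reads and 62 GFP- reads, a log2 ratio of 2.29 (1.90 to 2.71) or 4.89-fold. In contrast nrp1a, on chromosome 24 from 1172123 to 1331332, had 366 GFP+ reads and 466 GFP- reads, a log2 ratio of -0.46 (-0.66 to -0.26). At 16.2 RPKM for nrp1b and 13.5 RPKM for nrp1a the copies were at about the same level in GFP+ cells, whereas in GFP- cells nrp1b was at 3.32 RPKM and nrp1a at 18.2 RPKM. Reads covered only 35.5% of the longer nrp1b transcript and 41.4% of the longer nrp1a transcript in GFP+ cells, so that RPKM compares the copies only roughly. The share of neuropilin reads taken by nrp1b was 11.8% in GFP+ cells (exact 95% interval 10.6% to 13.0%) and 3.28% in GFP- cells (2.52% to 4.18%).

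Another model described as neuropilin 2a, ENSDARG00000079006, had 65 GFP+ reads and 8 GFP- reads, a log2 ratio of 2.83 (1.85 to 4.18). This short model lies on chromosome 1, 20.8 kb from nrp2a and on the opposite strand, and its interval did not overlap that of nrp2a. The 2 models summed gave 780 GFP+ and 428 GFP- reads (log2 ratio 0.75, 0.58 to 0.93). The sixth gene of this family, si:ch211-264f5.5, rests on a weak protein match (E value 1.89e-09) and had 9 reads in each library.

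**Figure D3:**
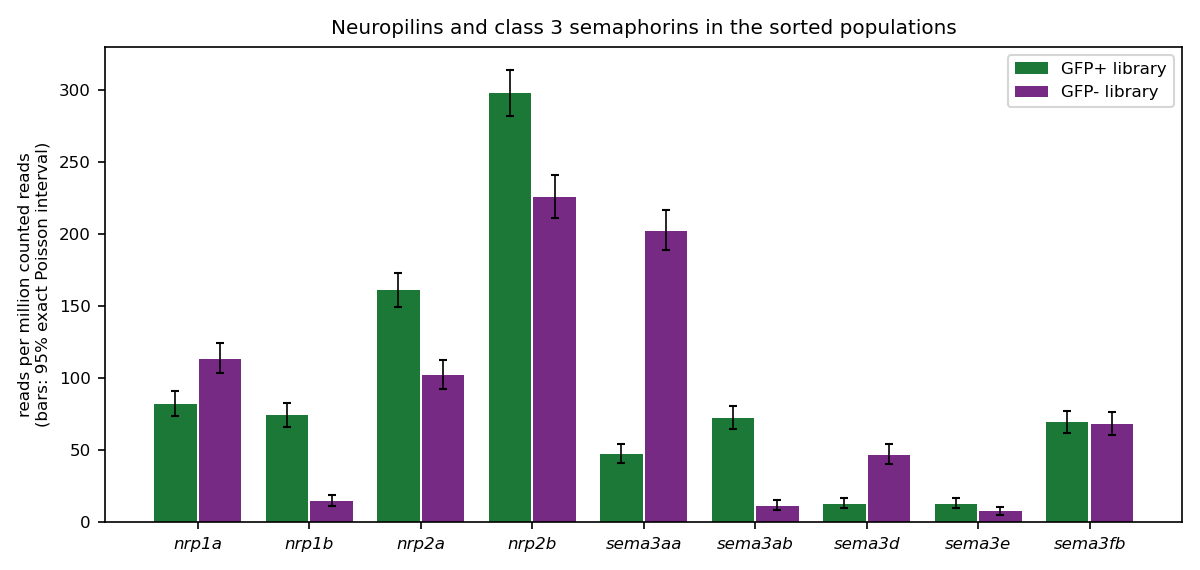
RPM for the 4 neuropilin genes and 5 class 3 semaphorin genes in the GFP+ library (green, left of each pair) and the GFP- library (purple, right), with 95% exact Poisson intervals as error bars; transcript length is not corrected for, so bars compare the libraries within a gene. The a and b copies differ in direction for nrp1 and sema3a: nrp1b and sema3ab are higher in GFP+ cells, nrp1a and sema3aa higher in GFP- cells.

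Class 3 semaphorins, the secreted ligands that reach plexins through neuropilins or, for Sema3e, bind plexin D1 directly, lay far apart in both directions. Of the 13 genes 11 had enough reads, 2 were over 2-fold higher in GFP+ cells and 2 lower, and their median log2 ratio was -0.32. These shares, 18.2% in each direction, were near the 16.2% and 17.6% of all genes. The gene sema3ab had 322 GFP+ reads and 47 GFP- reads, a log2 ratio of 2.65 (2.22 to 3.14) or 6.28-fold. Its copy sema3aa had 210 GFP+ reads and 831 GFP- reads, a log2 ratio of -2.10 (-2.32 to -1.88), the lowest among the 50 genes. Sema3a repels axons and, in zebrafish, vessel sprouts that carry plexin D1. Per length, sema3ab was the highest class 3 semaphorin in GFP+ cells at 27.3 RPKM, against 10.3 RPKM for sema3aa, and in GFP- cells sema3aa was the highest at 44.2 RPKM, against 4.32 RPKM for sema3ab. Of class 3 reads, sema3ab took 28.2% in GFP+ cells (25.6% to 30.9%) and 3.0% in GFP- cells (2.21% to 3.97%), and sema3aa took 18.4% in GFP+ cells (16.2% to 20.8%) and 53.0% in GFP- cells (50.5% to 55.5%).

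A run of 3 class 3 genes lies side by side on the forward strand of chromosome 18, whose members did not share a direction. In order these are sema3d, from 8636381 to 8703148, sema3ab, from 8836681 to 8893756, and sema3e, from 8947554 to 9030612. Between them lie 134 kb and 53.8 kb. The first, sema3d, known for guiding axons and neural crest cells, had 58 GFP+ reads and 193 GFP- reads, a log2 ratio of -1.84 (-2.30 to -1.42), next to 2.65 for sema3ab. The gene sema3e had 58 GFP+ reads and 32 GFP- reads, a log2 ratio of 0.73 (0.10 to 1.41). No other set of 3 members with enough reads lay within 500 kb of each other except the plexin A1 models of chromosome 6.

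Most of the remaining class 3 genes were closer to equal. The exception was a gene similar to Sema3d on chromosome 22, si:dkey-49n23.1, higher in GFP+ cells with 55 reads against 18 in GFP- cells (log2 ratio 1.47, 0.71 to 2.35), and its transcripts gave log2 ratios of 2.21 and 1.09. The neuropilin 2 ligand gene sema3fb had 308 GFP+ and 281 GFP- reads (0.02, -0.22 to 0.26), so that a 2-fold difference in either direction lies outside its counting interval. The gene sema3b had 37 GFP+ and 62 GFP- reads (-0.85, -1.49 to -0.25), and sema3bl, 12.5 kb from it, had 48 GFP+ and 40 GFP- reads (0.15, -0.49 to 0.79). Intervals crossed 1-fold for sema3c (23 GFP+ and 35 GFP- reads), sema3h (9 GFP+ and 16 GFP- reads) and sema3fa (6 GFP+ and 7 GFP- reads). Neither sema3ga (5 GFP+ and 1 GFP- reads) nor sema3gb (2 GFP+ and 5 GFP- reads) reached 10 reads.

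The other semaphorins are membrane-bound ligands, and 14 of 18 genes had enough reads, of which 3 were over 2-fold higher and 3 lower, with a median log2 ratio of -0.19. That is 21.4% in each direction, beside 16.2% and 17.6% of all genes, and with so few genes it is a description only. The largest ratio among genes with reads in both libraries was that of ENSDARG00000090776, a model on an unplaced scaffold whose best protein match is human semaphorin 7A (E value 5.52e-56). It had 162 GFP+ reads and 5 GFP- reads, a log2 ratio of 4.77 (3.65 to 6.55) or 27.3-fold, and reads covered 96.5% of its 1416 bases in GFP+ cells and 13.9% in GFP- cells. It ranked 182 among the 15252 genes by ratio, and at 25.8 RPKM it was the highest of these 18 genes in GFP+ cells, against 0.860 RPKM in GFP- cells. Since it has no symbol in the tables used and its listed match is no zebrafish protein, it is described by this match only. Semaphorin 7A is anchored to the membrane by a lipid and is known from neurons and blood cells in mammals. The annotated gene sema7a had 37 GFP+ and 15 GFP- reads (log2 ratio 1.16, 0.29 to 2.16), and a further gene described as semaphorin 7a, si:ch211-113g11.6, had 4 GFP+ and 0 GFP- reads.

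Class 4 semaphorins, which carry an immunoglobulin domain, were mixed. The gene sema4f had 29 GFP+ reads and 10 GFP- reads (log2 ratio 1.38, 0.34 to 2.62). A gene described as semaphorin 4d, si:ch211-129c21.1, had 4 GFP+ and 15 GFP- reads (-1.90, -4.07 to -0.37). Semaphorin 4b was represented by sema4ba, with 145 GFP+ and 162 GFP- reads (-0.27, -0.61 to 0.06), and by a gene on chromosome 7 with 138 GFP+ and 250 GFP- reads (-0.97, -1.28 to -0.67). The plexin B2 ligand gene sema4c had 198 GFP+ and 137 GFP- reads (0.42, 0.10 to 0.74). Only 3 to 6 reads over both libraries fell on each of sema4aa, sema4ab and semaphorin 4g.

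None of the 3 class 5 and 4 class 6 genes was over 2-fold higher in GFP+ cells, and 1 of each class was lower. Of all genes 16.2% were higher and 17.6% lower, so that with so few genes these counts are a description only. The gene sema5ba, of a class with thrombospondin repeats, had 573 GFP+ reads and 1071 GFP- reads, a log2 ratio of -1.02 (-1.16 to -0.87) that was within 2-fold under the other scalings. The gene sema5bb had 35 reads in each library (-0.11, -0.83 to 0.61). It is taken as the copy of sema5ba by its symbols, while the protein match in the files names it semaphorin 6A-like. Plexin A ligands of class 6 had log2 ratios from -1.13 for sema6d to 0.03 for sema6a (74 GFP+ and 67 GFP- reads). In sema6d most reads came from a 540-base transcript with 35 in GFP+ cells and 94 in GFP- cells (-1.53, -2.14 to -0.96), while the 3219-base transcript had 16 GFP+ and 10 GFP- reads (0.54, -0.66 to 1.87). The gene sema6bb had 74 GFP+ and 115 GFP- reads (-0.75, -1.19 to -0.32), and a gene that the files call semaphorin 6db and the gene table SEMA6C had 35 GFP+ and 34 GFP- reads.

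Copies that differ only by a final letter were compared pair by pair with Fisher's exact test, two-sided and run on read numbers, which compares these libraries, covers counting error only and does not depend on the scaling. Of 5 pairs 4 differed at an adjusted p under 0.05 (Benjamini-Hochberg). The log2 ratio of sema3ab exceeded that of sema3aa by 4.75 (95% interval 4.25 to 5.28, exact test, adjusted p = 1.81e-118). That of nrp1b exceeded that of nrp1a by 2.75 (2.31 to 3.22, exact test, adjusted p = 1.68e-42). Smaller differences were found for sema5bb over sema5ba (0.90, 0.17 to 1.64, exact test, adjusted p = 0.018), a pair that rests on the symbol of sema5bb, and for nrp2b against nrp2a (-0.25, -0.47 to -0.04, exact test, adjusted p = 0.0239). For sema3fb and sema3fa the difference was 0.34 with an interval from -1.46 to 2.22 (exact test, adjusted p = 0.782), which 13 reads of sema3fa leave too wide to tell copies apart.

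None of the 3 genes of other families with enough reads was over 2-fold apart. The gene plxdc2b, for a membrane protein that is not a plexin, had 150 GFP+ reads and 254 GFP- reads (log2 ratio -0.87, -1.17 to -0.58). Neuropilin and tolloid-like genes, auxiliary subunits of glutamate receptors, had 17 reads or fewer over both libraries, and one of them on chromosome 22, with 7 GFP+ reads and 3 GFP- reads, lay at 0.99 (-1.02 to 3.69) and past 2-fold under the other scalings. The gene plxdc1 had 4 GFP+ and 0 GFP- reads. Other members below 10 reads were plxnb2a.3 (1 read in GFP+ cells, 0 in GFP- cells) and si:dkey-183c2.5 (5 GFP+ and 0 GFP- reads).

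The gene ontology terms in the files divide the genes by process. The term angiogenesis was given to 7 of them, nrp1a, nrp1b, plxnd1, sema3aa, sema3ab, sema3h and sema5a, of which 3 were over 2-fold higher and 1 lower in GFP+ cells, where 16.2% and 17.6% of all genes were. Axon guidance was given to 8, of which 3 were higher and 3 lower, and 5 genes (nrp1a, nrp1b, sema3aa, sema3ab and sema3h) carried both terms. The term axonogenesis was given to 3 neuropilin models, of which 1 was higher and 0 lower, and ameboidal cell migration to 11 genes, of which 9 had enough reads, 2 were higher and 1 was lower. With so few genes these counts are given as a description.

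Beyond ligands and receptors, 79 genes of semaphorin signalling were listed with earlier results of these data known, among them the endothelial marker gene kdrl. By symbol 55 were matched, and 45 of them had enough reads. Of these, 10 were over 2-fold higher in GFP+ cells and 9 lower, that is 22.2% and 20% beside the 16.2% and 17.6% of all genes, with a median log2 ratio of -0.01. The interval crossed 1-fold for 1 gene in each direction. Under each of the other scalings 10 of the 45 listed genes were higher and 6 lower. Over all 15252 genes the same scalings also raised the higher count, to between 2786 and 2824, and reduced the lower count, to between 2316 and 2367. Because of how the list was chosen, its counts are a description only. The VEGF receptors, partners of neuropilins, had the highest ratios among genes with reads in both libraries. The VEGFR2-type genes kdrl and kdr had log2 ratios of 5.09 (4.76 to 5.46) and 6.96 (5.63 to 9.47), with 2640 GFP+ and 71 GFP- reads for kdrl and 472 GFP+ and 3 GFP- reads for kdr. The gene flt1, for VEGFR1, had 557 GFP+ reads and 5 GFP- reads (6.55, 5.46 to 8.31). Ligand genes differed in direction. The gene vegfaa had 88 GFP+ reads and 187 GFP- reads (-1.20, -1.58 to -0.83), and vegfc had 52 GFP+ and 21 GFP- reads (1.17, 0.44 to 2.0).

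Downstream genes with counterparts went apart in places and lay close together in others. The LIM kinase genes, whose products phosphorylate cofilin, were an example of the former. The gene limk1b had 336 GFP+ reads and 54 GFP- reads (log2 ratio 2.51, 2.11 to 2.97), and limk2 had 117 GFP+ and 222 GFP- reads (-1.03, -1.37 to -0.71). Under the other scalings limk2 lay within 2-fold. Cofilin itself, an actin-severing protein, differed little in cfl1 with 5037 GFP+ and 4760 GFP- reads (-0.03, -0.09 to 0.03), while cfl1l had 961 GFP+ and 3895 GFP- reads (-2.13, -2.24 to -2.03). This contrast was picked after the values of cfl1 were seen. Other counterparts lay close together. Log2 ratios were -0.996 (-1.11 to -0.88) for pak2a and -1.07 (-1.27 to -0.87) for pak2b. They were -0.22 (-0.35 to -0.09) for rhoaa and -0.23 (-0.39 to -0.06) for rhoac. The gene itgb1a, for an integrin subunit whose adhesion plexins weaken, had 272 GFP+ and 104 GFP- reads (1.27, 0.94 to 1.61). Adhesion molecules of neurons were among the higher ones, at low counts. The gene l1camb had 13 GFP+ reads and 0 GFP- reads, 4.01-fold against a floor of 3 reads. Its interval starts at a log2 ratio of 1.49 and has no upper end. The gene cntn2 had 40 GFP+ and 14 GFP- reads (1.37, 0.49 to 2.39). The kinase gene fer had 22 GFP+ and 9 GFP- reads (1.13, 0.00 to 2.48). Lower in GFP+ cells were erbb2, a receptor kinase that associates with B plexins, with 139 GFP+ and 313 GFP- reads (-1.28, -1.58 to -0.99), gsk3ab with 80 GFP+ and 173 GFP- reads (-1.22), pak2b with 324 GFP+ and 628 GFP- reads (-1.07), rras, the small GTPase that plexins inactivate, with 12 GFP+ and 35 GFP- reads (-1.62, -2.74 to -0.68), and gipc2 with 46 GFP+ and 101 GFP- reads (-1.24). Of these lower genes, pak2b lay within 2-fold under the other scalings. The gene gipc1, for synectin, which binds the tail of neuropilin 1 and plexin D1, had 283 GFP+ reads and 172 GFP- reads (0.60, 0.33 to 0.89).

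**Figure D4:**
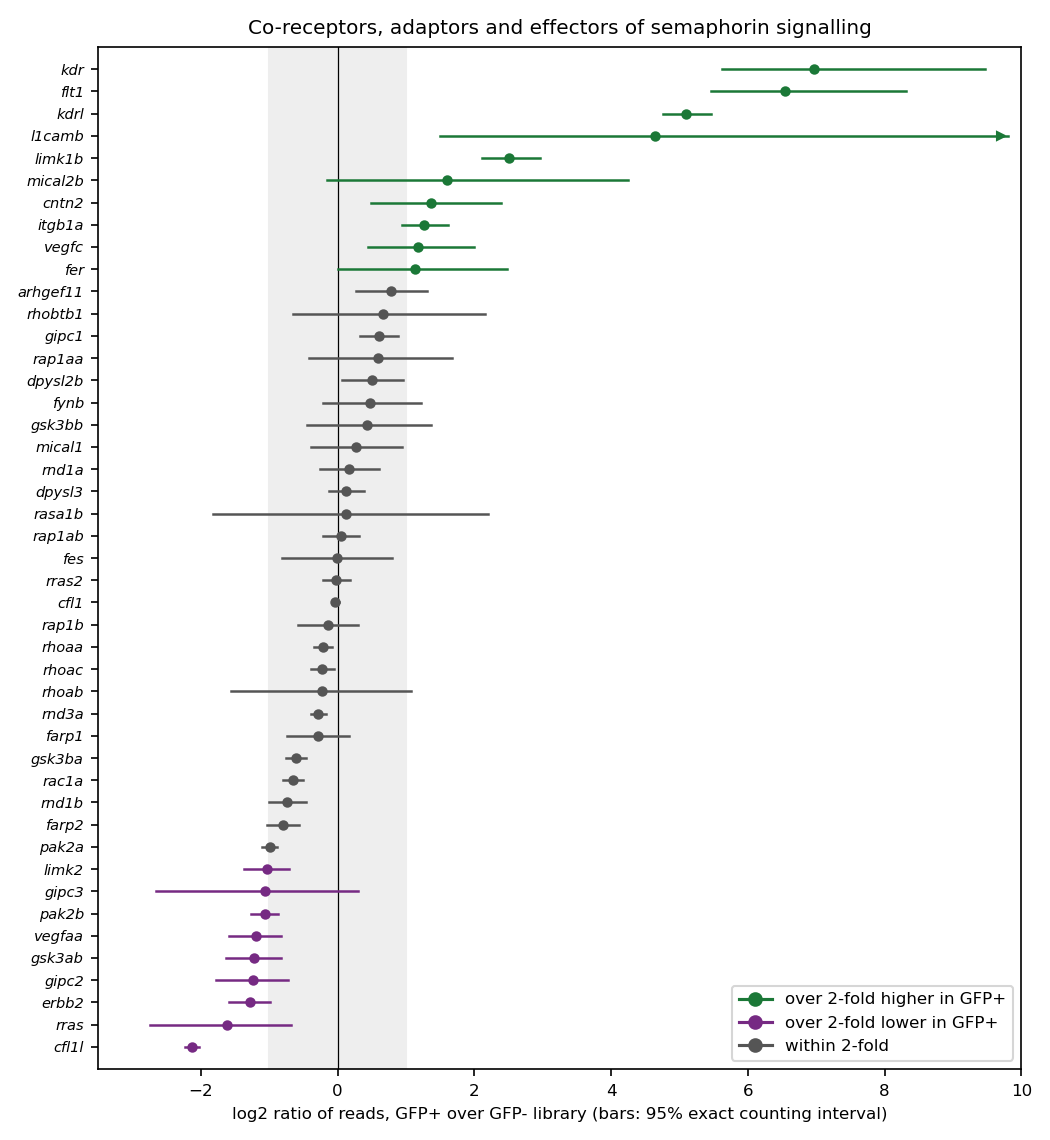
Log2 ratio of reads in the GFP+ over the GFP- library for 45 listed genes of semaphorin signalling, with 95% exact counting intervals as bars; green marks genes over 2-fold higher in GFP+ cells, purple genes over 2-fold lower, grey the rest. The VEGF receptor genes kdr, flt1 and kdrl lie at 6.96, 6.55 and 5.09, and cfl1l is lowest at -2.13; the interval of l1camb has no upper bound (arrow).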

How the data were processed

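RNA from GFP+ and GFP- cells was sequenced as 1 library per group after TruSeq RNA library preparation. For every Ensembl transcript (Zv9) that received 1 read or more, the authors deposited a count of its uniquely mapped reads, its length, its coverage in percent and its RPKM. The deposited RPKM equals the count scaled to transcript length and library total. The aligner and counter are not given in the sources used here.

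Counts were summed per gene identifier, and RPKM likewise. Members and lists were chosen with earlier results of these data known. Log2 ratios used library totals, 0.5 added reads and a minimum of 10 reads over both libraries, and a gene was called past 2-fold. Intervals are exact at 95%, either Clopper-Pearson on the fraction of a gene's reads that came from GFP+ cells, or Poisson on a level, and cover counting error only. A floor of 3 reads is 0.675 RPM for the GFP+ library and 0.731 RPM for the GFP- library. Copies were compared by Fisher's exact test, adjusted after Benjamini and Hochberg over 5 pairs. The plan took copies by RefSeq symbol, and symbols or protein names from the files were used where no RefSeq symbol was matched. On counts simulated with counting error alone, the interval held the true ratio for 96.0% of 15256 genes. Of 15056 genes simulated as unchanged, 622 passed 2-fold, 165 of them with an interval not crossing 1-fold. That simulation had no variation between libraries, so it cannot tell how replicates would differ. Symbols came from a table of gene identifiers (46 of 60 genes) or from RefSeq (GRCz12tu) by protein accession (24 of 60), 52 with either, and 8 are named from the files' protein match. Every member with at least 10 reads could be named. Listed genes were named if past 2-fold with an interval not crossing 1-fold, and gipc1 and VEGF genes in any case. The genes cfl1, pak2a, rhoaa and rhoac were named after their values were seen. Alternatives were TMM scaling, size factors, totals without hemoglobin reads, other minimums, 5 added reads, the most-read transcript, stricter calls and other membership. Scaling factors came from edgeR 4.0.16 and DESeq2 1.42.0 under R 4.3.3, and all else from Python 3.11.15 with SciPy 1.17.1.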

Additional observations from a re-analysis of the deposited data

How the results depend on the processing

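No paired analysis was possible because GFP+ and GFP- cells had 1 library each, and for the same reason no replicate could be left out. Without a minimum of reads 17 of the 60 member genes were over 2-fold higher in GFP+ cells and 9 lower, against 10 and 7 of 50. Over all 22017 genes 4710 were then higher and 4953 lower, against 2469 and 2686 of 15252. With a minimum of 50 reads, which fewer genes reach, 1396 of all genes were higher and 1610 lower. With an adjusted p under 0.001 in Fisher's exact test 1524 of all genes were higher and 1651 lower, that is 9.99% and 10.8%. Under this rule 6 of the 45 listed pathway genes were higher and 7 lower, against 10 and 9. Of the 50 member genes 7 were higher and 6 lower, that is 14% and 12%. The called members that did not pass it were plxnc1, sema7a, sema4f and the semaphorin 4D match si:ch211-129c21.1 (Fisher's exact test, adjusted p from 0.0029 to 0.0214). The median log2 ratio of all genes was -0.0087 with TMM scaling, 0 with median-of-ratios size factors (both 1, which leaves reads unscaled), -0.021 without hemoglobin reads and -0.13 with a minimum of 50 reads, against -0.11. These scalings moved every ratio by 0.09 to 0.11, so that the median of the 50 genes, -0.09, turned to 0.01 with TMM scaling and to 0.02 with size factors. It was 0.05 without a minimum. The plexin median, 0.13, became -0.13 with the most-read transcripts, -0.15 with a minimum of 50 reads and -0.09 with genes added by symbol, and the class 3 median, -0.32, became 0.02 with a minimum of 50 reads. Of the 17 genes past 2-fold, 14 stayed so under all 5 alternatives that change the ratio of a single gene. These are the 3 scalings, 5 added reads and the most-read transcript, and they leave out the stricter calls. The plxnc1 gene stayed so under 4 and had no value with the most-read transcript, which held under 10 reads. The others were sema5ba under the 3 scalings, at its highest -0.90, and sema7a with 5 reads added (0.96). None of the 17 changed sign. By symbol alone 4 further genes would be members, among them plxnb2a.2 with 10 GFP+ reads and 38 GFP- reads (log2 ratio -1.99) and a gene listed as PLXNB1 with 486 GFP+ and 534 GFP- reads (-0.25). Scalings cannot move a difference between copies. With the most-read transcripts the differences became 2.81 for nrp1, -0.26 for nrp2 and 0.32 for sema3f, on the same side of the 0.05 threshold, and the sema3a and sema5b genes gave the values reported. A pair of alternatives, summing models of the same protein (plexin A1a and A1b together) and leaving out models under 1000 bases, were chosen after seeing the data. Under each of them 8 member genes were higher and 7 lower, against 10 and 7 of 50. Both leave fewer than 50 genes with a ratio, so that these counts cannot be compared as shares of 50. The member median became -0.11 with models summed and -0.27 without the short models. With models summed the nrp2 difference became -0.35. Depth limits the 10 genes under 10 reads, for which no ratio is given.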
